A study of Mus musculus with 4 samples.

Results

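Vbp1 and the 5 other genes that encode the subunits of prefoldin were followed in mouse pachytene spermatocytes in which the kinase ATR was inhibited. Vbp1 is the X-linked gene of the set, and Pfdn1, Pfdn2, Pfdn4, Pfdn5 and Pfdn6 are autosomal. The 6 genes were taken by name from 23420 named genes, of which 5 stood under their own symbol and Pfdn6 stood under the older symbol H2-Ke2. They were chosen because Vbp1 was already known to differ between the conditions while its partners did not do so to a like extent, so their levels are given as a description, without a test.

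RNA was sequenced in 4 libraries, 2 from cells cultured with the solvent DMSO (Ctrl) and 2 from cells cultured with 10 µM AZ20, an inhibitor of ATR, in both cases for 24 h. The cells came from the testes of wild-type C57BL/6 males, 23 weeks old per the methods, and were sorted by FACS after staining with a DNA-binding dye, which gives a fraction enriched in pachytene cells. The culture temperature is 34 °C in the labels and 32 °C in the methods. According to the methods, cells of 1 mouse were split between DMSO and AZ20. Same-numbered libraries were taken as a pair, although the labels do not state that they share a mouse.

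Prefoldin is a six-subunit cochaperone of the cytosol. It takes up newly made actin and tubulin chains and passes them to the ring-shaped chaperonin TRiC/CCT, in which they fold. A pair of alpha-type subunits, Vbp1 (also called prefoldin subunit 3 and named for its binding to the von Hippel-Lindau protein) and Pfdn5, holds 4 beta-type subunits, Pfdn1, Pfdn2, Pfdn4 and Pfdn6. In pachytene spermatocytes the X and Y chromosomes are kept silent by meiotic sex chromosome inactivation (MSCI), which depends on ATR signaling, while the autosomes are transcribed.

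The promoters of both alpha-type subunits and of 1 beta-type subunit are shown to set the X-linked gene beside its autosomal partners. Each run is the 250 bases before the RefSeq gene start, read 5′ to 3′ on the strand of the gene in GRCm38.p6. Vbp1 lies at chrX:75514047-75514296 on the plus strand, Pfdn5 at chr15:102325866-102326115 on the plus strand and Pfdn6 at chr17:33940344-33940593 on the minus strand. Capitals mark a CCAAT box (CCAAT or its reverse complement ATTGG) or an ETS site (CCGGAA or TTCCGG).

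Vbp1: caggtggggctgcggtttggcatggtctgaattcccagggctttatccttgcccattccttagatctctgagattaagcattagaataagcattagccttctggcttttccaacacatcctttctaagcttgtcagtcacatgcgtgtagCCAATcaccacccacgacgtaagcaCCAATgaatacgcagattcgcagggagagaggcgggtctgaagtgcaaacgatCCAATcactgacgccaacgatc

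Pfdn5: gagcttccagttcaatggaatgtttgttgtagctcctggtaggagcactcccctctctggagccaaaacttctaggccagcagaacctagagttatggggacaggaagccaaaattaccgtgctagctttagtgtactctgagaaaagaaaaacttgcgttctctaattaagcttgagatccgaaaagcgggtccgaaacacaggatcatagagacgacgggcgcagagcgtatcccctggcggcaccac

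Pfdn6: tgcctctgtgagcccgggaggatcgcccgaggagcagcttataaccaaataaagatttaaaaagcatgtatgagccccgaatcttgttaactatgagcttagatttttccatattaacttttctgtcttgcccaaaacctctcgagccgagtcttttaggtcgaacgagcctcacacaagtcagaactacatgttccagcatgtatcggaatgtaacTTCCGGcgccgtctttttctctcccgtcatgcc

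The Vbp1 promoter held 3 CCAAT boxes, whereas the promoters of Pfdn2, Pfdn4, Pfdn5 and Pfdn6 held none. The promoter of Pfdn1 was left out and not read. Among 27025 RefSeq promoters of the same length, 34.5% held at least 1 CCAAT box and 2.98% held 3 or more. An ETS site stood once in the promoters of Pfdn4 and Pfdn6 and not in those of Vbp1, Pfdn2 and Pfdn5, and 12.2% of all promoters held one. CCGGAA and TTCCGG can overlap each other, and neither contains a CCAAT box. CpG pairs numbered 10 in Vbp1, 10 in Pfdn5, 13 in Pfdn6, 16 in Pfdn2 and 19 in Pfdn4, beside a median of 6 over all promoters. The matches describe the letters of these windows and say nothing of binding.

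Before the subunits, the libraries were checked against their label. All 10 pachytene markers were above 1 TPM (transcripts per set total, a level scaled to transcript length and library), with summed levels between 11126 and 11403 TPM. None of the 8 Sertoli cell markers passed 1 TPM in any library, and 5 of 6 Leydig cell markers were at 0, the other reaching 2.31 TPM. Among markers of other cells, 2 of 4 for myoid cells (up to 2.83 TPM), 1 of 5 for macrophages (1.28 TPM) and 1 of 7 for spermatogonia (1.11 TPM) passed 1 TPM in some library. All 7 round spermatid markers were above 1 TPM in every library, the lowest value being 1.09 TPM. Their sum was 368 and 150 TPM in Ctrl and 778 and 253 TPM in AZ20. The round spermatid sum was higher in AZ20 within each pair, and its part in the results was not tested. Depth, as the smallest whole read numbers that give the deposited values, was at least 13856914 and 15727552 reads in Ctrl and at least 20092668 and 18402879 reads in AZ20.

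Vbp1 was close to absent in control cells and abundant after AZ20. Its level was 0.929 and 0.650 TPM in the controls, and 275 and 332 TPM with AZ20. The Ctrl values rested on 15 and 12 reads, with 95% Poisson intervals of 8.40 to 24.7 and 6.20 to 21.0 reads, and the AZ20 values on 6394 and 6980 reads. The groups did not overlap, and the AZ20 libraries lay far above both controls. The mean rose from 0.789 ± 0.197 TPM to 303 ± 40.7 TPM (SD, n = 2 each), a ratio of 385, and the ratio was 296 in the first pair of libraries and 511 in the second. Summed over libraries, 27 Ctrl reads stood against 13374 AZ20 reads, a depth-corrected ratio of 387 with a 95% interval of 266 to 588 that covers counting error only. On the scale of log2(TPM + 1), which understates the change of low genes, the difference was 7.41 with a standard error of 0.22. In bulk libraries such as these, fewer cells that express a gene and less RNA per cell cannot be told apart.

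Vbp1 lies at X 75514299 to 75534942 on the plus strand (GRCm38, GENCODE), overlaps no other annotated gene, and shared none of 2030 stretches of 100 bases of its transcripts with another gene.

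Pfdn5, the alpha-type partner of Vbp1, was highly expressed in both conditions. Its level was 1179 and 1290 TPM in Ctrl and 1375 and 1322 TPM in AZ20. Both AZ20 libraries lay above both Ctrl libraries, by a small margin, with a difference of 0.13 (standard error 0.13) in log2(TPM + 1). Vbp1 reached 0.0788% and 0.0504% of the Pfdn5 level in the Ctrl libraries and 19.98% and 25.1% with AZ20.

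The beta-type subunits were expressed at 341 TPM or more in every library and moved little. Pfdn1 was at 1207 and 1196 TPM in Ctrl and 1028 and 1114 TPM in AZ20, so that both AZ20 libraries lay lower, with a difference of -0.17 (standard error 0.13). Pfdn2, which also serves in the URI complex described further on, was at 341 and 402 TPM in Ctrl and 464 and 446 TPM in AZ20, both higher, with a difference of 0.30 (standard error 0.15).

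The remaining subunits did not separate by treatment. Pfdn4 was at 379 and 344 TPM in Ctrl and 369 and 492 TPM in AZ20, with overlapping groups and a difference of 0.24 (standard error 0.18). That difference was 0.03 without AZ20 replicate 2 and 0.44 without AZ20 replicate 1. Pfdn6, likewise shared with the URI complex, was at 909 and 1022 TPM in Ctrl and 926 and 1040 TPM in AZ20, also overlapping, with a difference of 0.03 (standard error 0.14) that turned negative, to -0.06, without Ctrl replicate 1 or without AZ20 replicate 2. Leaving out 1 library breaks a pair, and within each of the pairs the ratio of AZ20 to Ctrl was 1.02 for Pfdn6. The AZ20 libraries lay above both controls for 3 of the 6 genes and below them for 1, beside 26.4% and 11.7% of the 10316 genes tested, and nothing is read from this count because the genes were chosen on the same contrast.

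**Figure D1:**
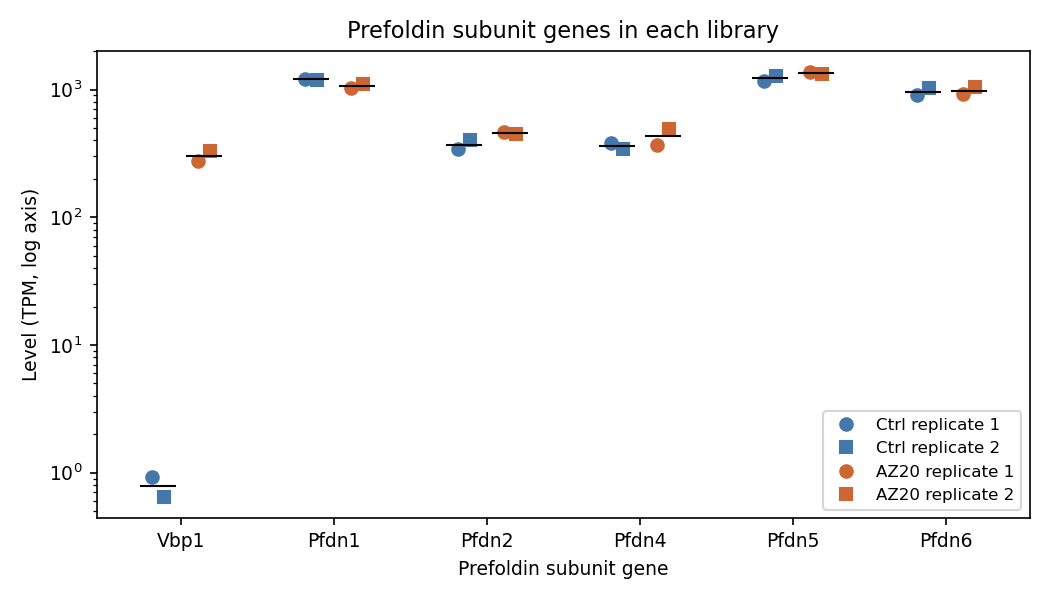
Level of each prefoldin subunit gene in TPM (log axis) in each library, with circles for replicate 1, squares for replicate 2 and black bars for the mean of a group (n = 2). Vbp1 sits below 1 TPM in both Ctrl libraries and at 275 and 332 TPM in AZ20, while the 5 autosomal subunits sit between 341 and 1375 TPM in all libraries.

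Some reads of the autosomal subunits could have been assigned to or shared with other genes. Of the 100-base stretches of their transcripts, 22.6% of those of Pfdn2 also lay in Klhdc9, on the opposite strand, and 16.2% of those of Pfdn4 in the antisense gene Gm16796. The share was 6.90% for Pfdn5, with Myg1 and Gm5644, and 1.03% for Pfdn6. The stretches were taken from all GENCODE transcripts, while reads were counted on the UCSC refGene annotation, so the shares may include sequence that was not counted. The strand setting of the counting is not given in the sources used here. How far the Pfdn2 and Pfdn4 values are affected is therefore not known, and the shares do not measure it. Klhdc9 was listed at 42.9 and 53.8 TPM in Ctrl and 40.2 and 26.5 TPM in AZ20, all far below Pfdn2, and Gm16796 did not pass 0.412 TPM.

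TPM is a level per length, so the subunits can also be set against each other within a library. In Ctrl, Pfdn5 and Pfdn1 stood highest with overlapping ranges, followed by Pfdn6, then by Pfdn2 and Pfdn4, whose ranges overlapped, and at last by Vbp1. In AZ20 the order was Pfdn5, then Pfdn1 and Pfdn6 with overlapping ranges, then Pfdn2 and Pfdn4 with overlapping ranges, and again Vbp1 last. The mean of the other 5 subunits was 865 and 1309 times the level of Vbp1 with DMSO, and 3.03 and 2.66 times with AZ20.

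Expressed the other way, Vbp1 was at 0.116% and 0.0764% of that mean in Ctrl and at 33.0% and 37.6% in AZ20, with a mean of 35.3 ± 3.27% (SD, n = 2) in AZ20. With AZ20, Vbp1 stood nearest to Pfdn4, at 74.5% and 67.6% of its level, and to Pfdn2, at 59.2% and 74.5%. The summed level of the 5 autosomal subunits was 4015 and 4254 TPM in Ctrl and 4161 and 4414 TPM in AZ20. This sum overlapped between the conditions and was higher with AZ20 within each pair.

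Vbp1 was then placed among the X-linked genes. A gene was tested where its mean passed 1 TPM in either condition, and it was called where limma gave an adjusted p under 0.05 and a change of at least 2-fold. Of 10316 genes tested, 2.28% were called higher and 0.0485% lower with AZ20. Of the 341 X-linked genes among them, 216 (63.3%) were called higher, against 10 of 9926 autosomal genes (0.101%). The median difference in log2(TPM + 1) was 2.61 over X-linked genes and 0.06 over autosomal genes. By mean level, Vbp1 stood at place 5 of the 341 X-linked genes in AZ20 and at place 64 in Ctrl. By its difference Vbp1 was number 3, both among the X-linked genes and among all genes tested, at a pseudocount of 1. This place depends on the pseudocount, and among all genes tested it was 10 with a pseudocount of 0.1 and 90 with 0.01. Among all genes tested it stood at place 9682 by level in Ctrl and at place 676 in AZ20. The median X-linked gene was at 0.0944 TPM in Ctrl and 6.45 TPM in AZ20. X-linked genes under 1 TPM in Ctrl, as this median is, were tested only because AZ20 was above 1 TPM. The share called and the median difference of X-linked genes are therefore partly set by this filter.

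**Figure D2:**
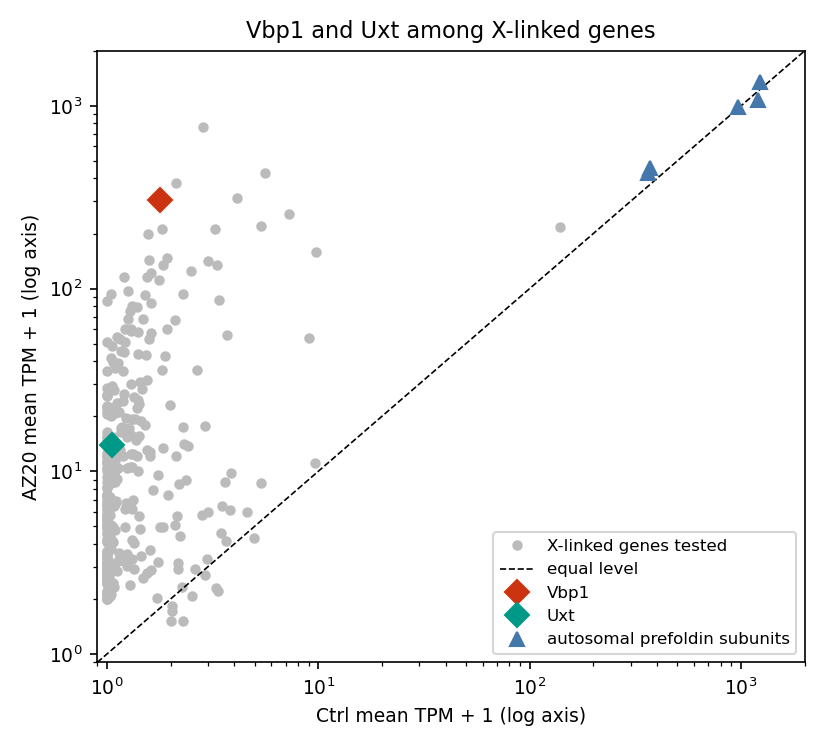
Mean TPM + 1 in AZ20 against Ctrl (log axes, n = 2 each) for 341 X-linked genes (grey), with Vbp1, Uxt and the 5 autosomal prefoldin subunits marked and a dashed line of equal level. Vbp1 lies at 0.789 and 303 TPM, far above the line, while the autosomal subunits lie close to it at 361 TPM or more in Ctrl.

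The 5 tested genes whose levels were most like those of Vbp1, by the Euclidean distance of log2(TPM + 1) over the 4 libraries, were all X-linked. Gm9 was nearest, at a distance of 1.03, with 0.477 and 1.77 TPM in Ctrl and 414 and 336 TPM in AZ20. It was followed by 4930550L24Rik (1.21), Nxt2 (1.29), which encodes an mRNA export factor, Slxl1 (1.45), a member of the Xlr family, and Prps1 (1.52), which encodes an enzyme of nucleotide synthesis. Prps1 had the lowest level of these genes in AZ20, at 142 and 149 TPM. Likeness here is of level alone.

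The genes around Vbp1 on the X chromosome varied widely in their response. Of the 20 tested neighbours, 10 on each side between positions 74281912 and 85634469, limma called 10 higher with AZ20 and none lower, and 15 and 0 had an unadjusted p under 0.05 in those directions, which 8.03% and 1.13% of all genes tested had. Among those called, Gm8787 and Gm7173, named here for this reason alone, overlap each other. Among all X-linked genes tested, 63.3% were called higher and 0 lower. The median difference of the neighbours was 1.71, below the 2.61 over all X-linked genes tested, and their differences ran from -0.05 to 6.46. Both AZ20 libraries lay above both controls for 16 of the 20, and the groups overlapped for 4. Among X-linked genes tested, 91.2% did not overlap in this direction, a share partly set by the 1 TPM filter. Most of the neighbours were under 1 TPM in Ctrl and were tested only because AZ20 passed 1 TPM. Their counts called, at an unadjusted p under 0.05 or without overlap, and their median difference are therefore also partly set by this filter. The genes tested as a whole are mostly autosomal. Only 2 of the neighbours passed a mean of 100 TPM in AZ20, and 14 stayed below 10 TPM. All 10 calls were lost without AZ20 replicate 1 and without AZ20 replicate 2, when 0 genes were called among all genes tested.

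Close neighbours differed from one another. Mtcp1, whose product acts on AKT signaling, ends 97711 bp before Vbp1. It was at 0 and 0.128 TPM in Ctrl and 3.85 and 2.40 TPM in AZ20, the smallest called change (difference 1.94, limma adjusted p = 0.038). Mtcp1 passed the 1 TPM filter only through AZ20. It was not called with a pseudocount of 0.1 or 0.01, without the expression filter, with quantile normalization or with voom. It stayed called with the replicate block, with a common autosomal total, without the intensity trend and without the fold minimum. Fundc2, which encodes a mitochondrial outer membrane protein, ends 117840 bp before Vbp1 and was at 0 and 0.239 TPM in Ctrl and 51.5 and 55.0 TPM in AZ20, a difference of 5.61. The AZ20 levels of these adjacent genes did not overlap.

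Smim9, 350529 bp before Vbp1, did not separate by treatment, at 1.83 and 0.247 TPM in Ctrl and 0.587 and 1.08 TPM in AZ20 (difference -0.05, limma adjusted p = 0.99). On the other side, the 3 nearest tested genes were 4930428D18Rik, 4930468A15Rik and Fam47c, with differences of 0.74, 0.17 and 0.92, and none of them was called. The highest called neighbour, 4930595M18Rik, was at 0 and 0.0983 TPM in Ctrl and 103 and 81.7 TPM in AZ20, a difference of 6.46 with a standard error of 0.24. With Ctrl at or near 0, these differences depend on the pseudocount.

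**Figure D3:**
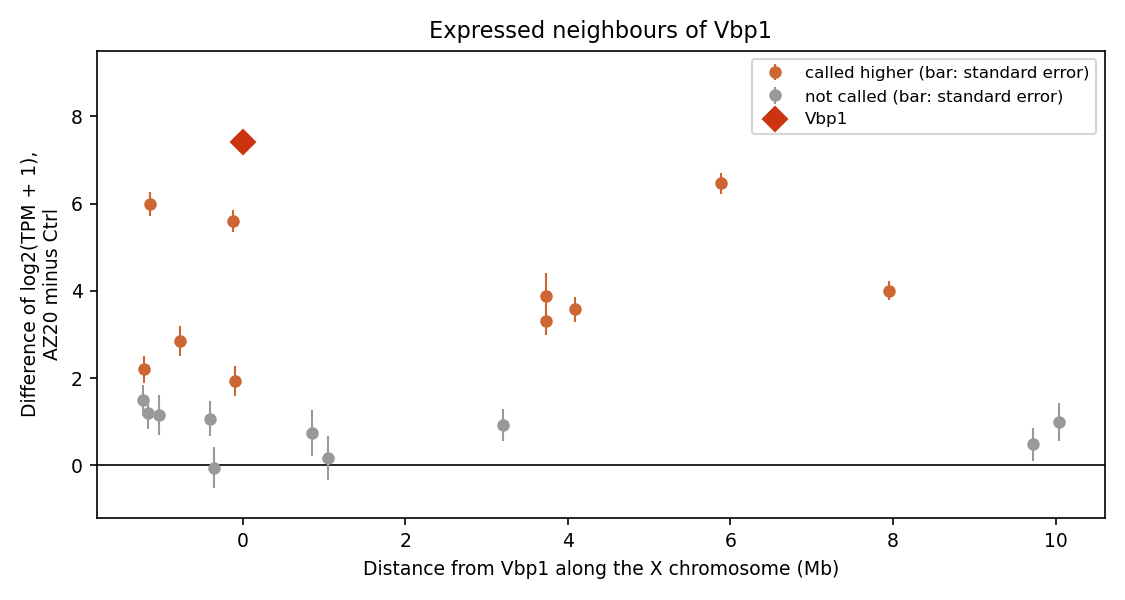
Difference of log2(TPM + 1), AZ20 minus Ctrl, against the distance between the gene and Vbp1 (Mb, negative before Vbp1). Shown are Vbp1 and the 10 tested X-linked genes next to it on each side, with bars for the standard error. The 10 called genes (orange) run from 1.94 to 6.46, below Vbp1 at 7.41. Genes that were not called (grey) run from -0.05 to 1.49 and lie among the called ones in position only.

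The genes that work with prefoldin were read from 6 lists, which held 47 tested genes, 46 of them autosomal. Of the autosomal ones, none was called in either direction by limma, beside 0.101% called higher and 0.0504% called lower among all autosomal genes tested. With the replicate number entered as a block, 2 of them were called, both higher. Of all genes tested, X-linked ones included, 4.11% were then called higher and 0.223% lower. The autosomal share with the block was not computed. The lists are described by their counts and medians, beside a median of 0.07 over all genes tested.

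The chaperonin TRiC/CCT, which receives substrates from prefoldin, had no called gene. All 9 subunit genes, the testis paralog Cct6b included, were tested, with none at an unadjusted p under 0.05 and a smallest limma adjusted p of 0.655. Their mean levels in AZ20 ran from 100 to 1331 TPM and in Ctrl from 89.6 to 1582 TPM. The median difference was -0.03. The lowest values were -0.25 for Tcp1, which encodes the alpha subunit of the ring, and -0.18 for Cct5, and the highest were 0.20 for Cct2 and 0.16 for Cct6a.

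The URI complex is a second prefoldin-like assembly, which shares Pfdn2 and Pfdn6 with prefoldin and works with the R2TP chaperones on RNA polymerases and other large complexes. Of 10 listed genes, 9 were found and tested, and 1 was called higher and 0 lower, with a median difference of 0.13. At an unadjusted p under 0.05, 2 genes, Uxt and Pdrg1, were higher, as were 8.03% of all genes tested. The called gene was Uxt, an alpha-type prefoldin-like subunit and the only X-linked gene among those tested in the 6 lists, at X 20941722 to 20962017. It was at 0 and 0.104 TPM in Ctrl, from 0 and 1 reads, and at 10.6 and 15.2 TPM in AZ20, from 128 and 166 reads. The groups did not overlap, and the difference was 3.70 with a standard error of 0.30 (limma adjusted p = 0.000665). Uxt passed the 1 TPM filter only through AZ20, and without that filter its limma adjusted p was 0.0238. The depth-corrected read ratio was 230, with a 95% counting interval of 40.9 to 9109. Without AZ20 replicate 1 the limma adjusted p of Uxt was 0.0902, and without AZ20 replicate 2 it was 0.0791. Uxt ranked at place 115 of the 341 X-linked genes by level in AZ20, well below Vbp1. The Uxt promoter held 1 ETS site and no CCAAT box.

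Pdrg1, an autosomal beta-type subunit of the same assembly, was at 52.0 and 89.1 TPM in Ctrl and 135 and 109 TPM in AZ20. Its groups did not overlap, but it was not called (difference 0.82, limma adjusted p = 0.395). With the replicate number as a block its limma adjusted p was 0.0339, where the change still fell short of 2-fold. Uri1, the scaffold of the assembly, was at 5.05 and 6.10 TPM in Ctrl and 3.65 and 7.15 TPM in AZ20, with a difference of -0.09. Polr2e, a polymerase subunit that binds the complex, had a difference of -0.10.

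**Figure D4:**
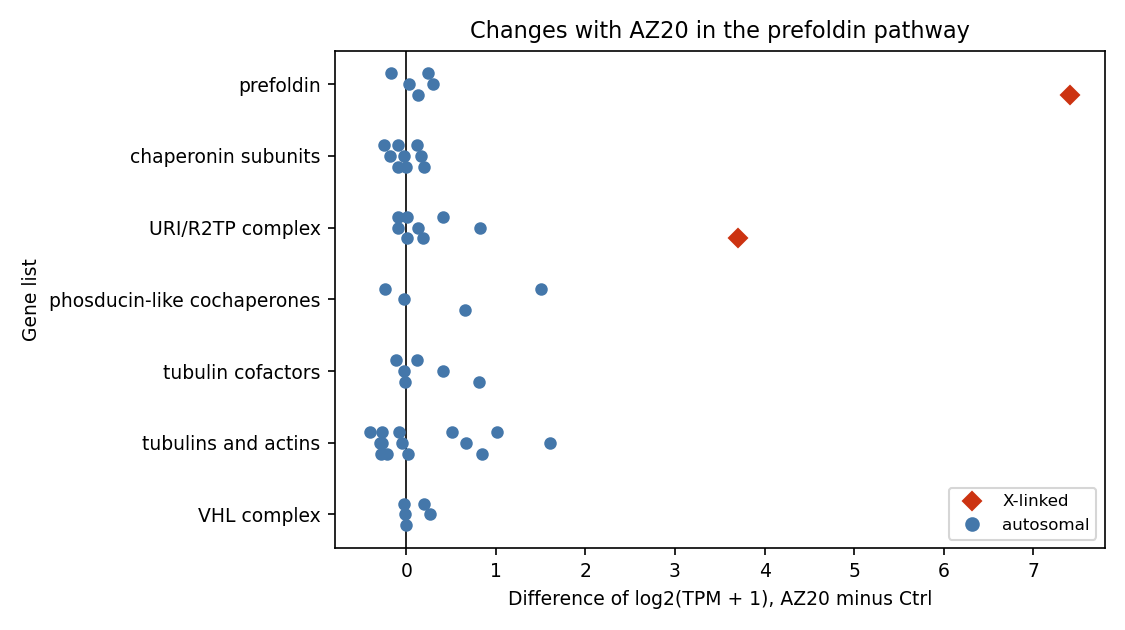
Difference of log2(TPM + 1), AZ20 minus Ctrl, for the 6 prefoldin subunits and for the tested genes of 6 lists, with diamonds for X-linked and circles for autosomal genes, spread vertically for legibility. Vbp1 (7.41) and Uxt (3.70) are the diamonds, and the autosomal genes lie between -0.40 and 1.60.

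The phosducin-like proteins, cochaperones of the chaperonin, were all measured, and none of the 4 was called, with a median difference of 0.32. At an unadjusted p under 0.05, 2 genes were higher, as were 8.03% of all genes tested. Pdcl3 was at 1.39 and 5.64 TPM in Ctrl and 9.84 and 10.8 TPM in AZ20, without overlap (difference 1.504, limma adjusted p = 0.329). The replicate number as a block called 4.11% of all genes tested, X-linked ones included, higher and 0.223% lower. With that block, Pdcl3 was called at a limma adjusted p of 0.000587. Its ratio of AZ20 to Ctrl was 7.06 in pair 1 and 1.92 in pair 2. With Ctrl replicate 1 left out, its difference was 0.77, under 2-fold. Pdcl had a difference of 0.66 and Txndc9 of -0.24. Pdcl2, the germ cell member, was by far the most abundant, at 3061 and 3014 TPM in Ctrl and 3001 and 2973 TPM in AZ20, with a difference of -0.02.

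The tubulin cofactors, which act on tubulin released from the chaperonin, were likewise not called in any of 6 cases, with none at an unadjusted p under 0.05 and a median difference of 0.05. Tbce (0.81) and Tbcc (0.41) had the highest differences and Tbcd (-0.12) and Arl2 (-0.03) the lowest. The largest of these, for Tbce, had a limma adjusted p of 0.697 and overlapping groups.

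Among the substrates, 14 of 28 tubulin and actin genes passed the filter, and none was called, with a median difference of -0.07 that turned positive, to 0.02, without the filter, to 0.12 without AZ20 replicate 2 and to 0.08 without Ctrl replicate 2. Of these, 2 had an unadjusted p under 0.05, both higher, Actl7a and Actg2 (difference 1.01, limma adjusted p = 0.333), which are named here after their values were seen. Over all genes tested, 8.03% were higher at that threshold. The 4 most abundant members overlapped between conditions. Tuba3a, a testis alpha-tubulin, was at 2743 and 3476 TPM in Ctrl and 2890 and 2246 TPM in AZ20. Its close paralog Tuba3b, whose reads may be hard to assign, was at 1362 and 1655 TPM in Ctrl and 1446 and 1057 TPM in AZ20, and both had a difference of -0.28. Actb had a difference of -0.29 and Tubb4b of 0.02. Actl7a, an actin-like gene of germ cells, was called with the replicate number as a block (difference 1.60, limma adjusted p = 0.00659, against 0.481 without the block). It was at 0.395 and 0.692 TPM in Ctrl and 8.19 and 1.37 TPM in AZ20, so that AZ20 replicate 1 carried most of the difference, which was 0.62 without it.

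The von Hippel-Lindau ubiquitin ligase was included because the Vbp1 protein is named for binding to its substrate receptor. All 5 measured genes overlapped between conditions, none was called or had an unadjusted p under 0.05, and the median difference was -0.0011, with either sign among the alternative scalings. The differences were 0.27 for Vhl, 0.19 for Cul2, -0.02 for Rbx1 and -0.03 for Tceb2, the older symbol of Elob.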

How the data were processed

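The authors trimmed reads of paired 150-bp libraries (NEBNext Single Cell/Low Input kit) with Trimmomatic 0.39, aligned them to GRCm38/mm10 with STAR 2.5.4b keeping unique alignments, counted them on the UCSC refGene annotation with featureCounts 2.0.1, and deposited TPM computed from the counts, 1 column per library. Rows without a name (92) were left out. Since a gene has the same length in every library, the smallest whole reads per gene were recovered from TPM, and whole numbers were found for each of the 16857 genes above 0 (within 0.0001 reads beyond the rounding of TPM, at a gene length whole within 0.01 bases times the factor applied). The implied length lay within the annotated range for 13937 of these genes. A factor common to all 4 values is lost, so depths are lower bounds. Genes were placed with GENCODE and RefSeq.

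Tests were those of limma 3.58.1 (R 4.3.3) on log2(TPM + 1), with the prior variance following intensity, for genes with a mean above 1 TPM in Ctrl or AZ20. A gene was called where it changed 2-fold or more and its p, adjusted over all 10316 genes by Benjamini-Hochberg, was under 0.05. The 4 libraries entered without covariates. With 2 libraries a group, the smallest exact permutation p is 0.333, so no single value was tested that way. The procedure was tested on simulated data. Intervals cover counting error only.

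The members and lists were chosen with earlier results of these data known. Genes named from the lists were those called, X-linked, or among the 2 highest and 2 lowest of their list (of tubulins and actins, those called and the 4 with the highest mean TPM), and of the neighbours the 3 nearest a side and those called with the highest and the lowest change. Cells of 1 mouse were split between conditions per the methods, and same-numbered libraries deviated together from their group means (r = 0.23 over 10316 genes). The replicate number was therefore tried as a block, as a stand-in for the mouse, which the labels do not name. Other pseudocounts, filters, scalings, voom on recovered reads and leaving out each library were tried beside it. Sequences are those of RefSeq, used for 5 of 6 members, with Pfdn1 left out. Comparisons made by the authors were not used.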

Additional observations from a re-analysis of the deposited data

How the results depend on the processing

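Of 185 alternative values, 166 stayed within the spread or within 1.5 times the count and 19 moved. Those that stayed include list counts of 0 in both fits and differences that a block cannot change in this balanced design. They also include shares of Vbp1 within a pair that repeat those with 1 AZ20 library, so these totals do not measure how stable the results are. The difference of Pfdn6 changed sign in 2 of its 9 alternatives, by less than its spread, and that of no other subunit did. With the replicate number as a block, genes called higher went from 235 to 424 and genes called lower from 5 to 23. Pdcl3 and Actl7a brought the calls among phosducin-like cochaperones to 1 and among tubulins and actins to 1. The block left the calls among chaperonin subunits, URI/R2TP genes, tubulin cofactors and the VHL complex as they were, and gave 12 neighbours of Vbp1. Genes called lower numbered 1 without the expression filter and 1 with voom on recovered reads. Leaving out 1 library gave 0 to 184 genes called higher, 0 to 1 lower, 0 to 1 URI/R2TP gene and 0 to 7 neighbours of Vbp1. In each case 0 came without AZ20 replicate 1 or without AZ20 replicate 2, which leaves 1 AZ20 library, assumed to vary like Ctrl, and 1 residual degree of freedom. The difference of Vbp1 was 8.43 with a pseudocount of 0.1 and 8.58 with 0.01. Against the median of the other subunits Vbp1 reached 30.8% in AZ20, where it had been 35.3% of their mean, and that share was 33.0% to 37.6% with 1 AZ20 library. Quantile normalization shifted the median difference of all genes by -0.14, to -0.07. The sign of the chaperonin median turned when either Ctrl library was left out, that of the URI/R2TP median without Ctrl replicate 1 and that of the tubulin cofactor median without AZ20 replicate 1, and that of the VHL median varied. Vbp1 rested on 12 and 15 reads in Ctrl, which limits the precision of its ratio.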
